A study of Mus musculus with 3 samples.

Results

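Conventional dendritic cells (DC) made up 138 of 28782 cells kept from 3 single-cell RNA libraries of mouse lung. A barcode was kept if it held at least 250 detected genes and at most 15% of mitochondrial UMIs (unique molecular identifiers, each standing for 1 captured RNA molecule). The DC were chosen by measured counts. Each held at least 10 UMIs of the MHC class II gene H2-Ab1 and at least 2 UMIs summed over the markers Flt3, Xcr1, Clec9a, Cd209a and Fscn1. Each lacked the B cell gene Cd79a, the T cell genes Cd3d, Cd3e and Cd3g and the fibroblast genes Col1a1 and Col1a2. At most 2 UMIs were allowed of C1qa, C1qb and C1qc, complement genes of tissue macrophages. The levels of all these genes are therefore given as a description only.

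Lung tissue came from 3 groups of mice, with 1 droplet library of transcript 3' ends per group. Mice of the first group were irradiated, carried a conditional knockout and received a drug; their library is called knockout below. The others were irradiated wild-type (WT) mice and non-irradiated WT mice. The targeted gene, the driver of its deletion, the drug, the radiation dose, the time after it, strain, age and the number of mice per library are not named in the labels. Knockout therefore differs from irradiated WT in genotype and drug at once, and these cannot be told apart. Nor can a group be told apart from its library, so no test between groups was possible. Levels are counts per 1000000 UMIs (CPM) over the summed DC of a library, with exact Poisson 95% intervals in parentheses where given. Shares carry exact binomial 95% intervals. Both cover counting error only, not the variation between mice.

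Conventional DC take up antigen in the tissue, carry it to the draining lymph node and present it to T cells. The cDC1 subset, marked by the chemokine receptor XCR1 and the dead-cell receptor CLEC9A, presents taken-up antigen on MHC class I to CD8 T cells, whereas the cDC2 subset, marked in mice by CD209a, mainly serves CD4 T cells. On maturation either subset raises CCR7, the receptor that guides it to the lymph node, and the actin-bundling protein fascin (Fscn1).

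The libraries held 76667310 UMIs in knockout, 45800421 in irradiated WT and 85984536 in non-irradiated WT, and 9886 barcodes in knockout, 5805 in irradiated WT and 13091 in non-irradiated WT passed the filters. The DC held 770493 UMIs in knockout, 1306666 in irradiated WT and 729343 in non-irradiated WT. Their median depth was 19435 UMIs per cell in knockout, 24045 in irradiated WT and 17452 in non-irradiated WT, with a range over all DC of 2214 to 58414. No DC barcode was shared between libraries. Of all kept cells, 0.273% in knockout, 27.5% in irradiated WT and 0.00764% in non-irradiated WT held Y-linked and no Xist UMIs. Of the DC, 0 in knockout, 13 in irradiated WT and 0 in non-irradiated WT were of this male type, so the irradiated WT library held male-type and other cells.

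Genes that the rule did not use were also those of DC. The summed level of 12 conventional DC identity genes, among them the transcription factors Zbtb46, Irf8, Batf3 and Id2 and the protease inhibitor Cst3, was 28893 CPM in knockout, 30655 in irradiated WT and 13381 in non-irradiated WT. In the remaining kept cells it was 2506 CPM in knockout, 2748 in irradiated WT and 2820.2 in non-irradiated WT. Most of the sum in the DC was Cst3 alone, at 25992 CPM in knockout, 27185 in irradiated WT and 11018 in non-irradiated WT. In the remaining cells Cst3 stood at 835 CPM in knockout, 773 in irradiated WT and 1722 in non-irradiated WT. None of the 12 genes was at 0 in the DC of any library. The same held in the remaining kept cells, so presence alone does not set the DC apart. The chemokine genes Ccl22 and Ccl17, known products of DC, led the genes set apart from the remaining cells. Ccl22 stood at 1051 CPM in knockout, 1052 in irradiated WT and 1146 in non-irradiated WT in the DC and at 5.18 CPM in knockout, 12.1 in irradiated WT and 12.3 in non-irradiated WT in the remaining cells. Ccl17 stood at 854 CPM in knockout, 1187 in irradiated WT and 1378 in non-irradiated WT in the DC and at 5.81 CPM in knockout, 16.2 in irradiated WT and 11.7 in non-irradiated WT in the remaining cells.

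The rule also let through cells with many transcripts of another lineage. At least 10 UMIs of endothelial (Pecam1, Cdh5, Cldn5), plasmacytoid DC (Siglech, Ccr9, Cox6a2, Ly6d, Klk1) or NK cell genes (Ncr1, Nkg7, Gzma, Klre1) were held by 7 DC in knockout, 0 in irradiated WT and 9 in non-irradiated WT. These are called marked cells below, a definition added after the values were seen. Endothelial genes marked 3 knockout cells, with 78 to 141 UMIs, and 6 non-irradiated WT cells, with 36 to 545 UMIs. None of these held Ccr7 or Ccl22, and 1 in each library held the pan-leukocyte gene Ptprc. Plasmacytoid DC genes marked 2 cells in knockout and 2 in non-irradiated WT, and NK cell genes marked 3 cells in knockout and 2 in non-irradiated WT. In each of these libraries 1 cell met the count for a pair of lineages.

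Without the marked cells the DC numbered 37 in knockout, 57 in irradiated WT and 28 in non-irradiated WT, with 612786 UMIs in knockout, 1306666 in irradiated WT and 492159 in non-irradiated WT. The summed level of 10 endothelial genes was 793 CPM in knockout, 4.59 in irradiated WT and 3957 in non-irradiated WT with the marked cells and 3.26 CPM in knockout, 4.59 in irradiated WT and 83.3 in non-irradiated WT without them, when 8 of the 10 genes in knockout, 7 in irradiated WT and 1 in non-irradiated WT were at 0. Summed epithelial genes stayed uneven, at 1130.9 CPM in knockout, 123 in irradiated WT and 683 in non-irradiated WT, and 1 Cd209a cell of knockout alone held 185 epithelial UMIs. Mesenchymal genes summed to 137 CPM in knockout, 28.3 in irradiated WT and 224 in non-irradiated WT and NK cell genes to 131 CPM in knockout, 62.8 in irradiated WT and 58.9 in non-irradiated WT. B cell genes summed to 26.1 CPM in knockout, 11.5 in irradiated WT and 16.3 in non-irradiated WT and interstitial macrophage genes to 13.1 CPM in knockout, 9.18 in irradiated WT and 12.2 in non-irradiated WT. Neutrophil genes summed to 712 CPM in knockout, 411 in irradiated WT and 530 in non-irradiated WT, mostly Il1r2. Classical monocyte genes summed to 424 CPM in knockout, 297 in irradiated WT and 349 in non-irradiated WT. Alveolar macrophage genes summed to 336 CPM in knockout, 732 in irradiated WT and 224 in non-irradiated WT, mostly Plet1. Plasmacytoid DC genes summed to 465 CPM in knockout, 390 in irradiated WT and 226 in non-irradiated WT, in part Bst2. Gene values below leave the marked cells out unless the text says otherwise. The part of the remaining transcripts of other lineages in any difference was not tested.

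Some cells lay near the edges of the rule. H2-Ab1 of 10 to 14 UMIs, just inside, was held by 3 DC in knockout, 3 in irradiated WT and 2 in non-irradiated WT. Just outside, at 5 to 9 UMIs, lay 2 cells in knockout, 3 in irradiated WT and 14 in non-irradiated WT, of which 9 in non-irradiated WT were endothelial-marked. A marker sum of exactly 2 was held by 9 DC in knockout, 7 in irradiated WT and 8 in non-irradiated WT. A marker sum of 1, just outside, was held by 5 other cells in knockout, 5 in irradiated WT and 23 in non-irradiated WT, of which 5 in knockout, 5 in irradiated WT and 16 in non-irradiated WT held Ccr7. H2-Ab1 per DC had a lowest, median and highest value of 13, 65 and 598 UMIs in knockout, 10, 221 and 854 in irradiated WT and 10, 124 and 394 in non-irradiated WT.

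DC as a share of all kept cells formed 0.445% (0.324 to 0.597) in knockout, 0.982% (0.745 to 1.27) in irradiated WT and 0.283% (0.199 to 0.389) in non-irradiated WT. When the marked cells were left out the share was 0.374% (0.264 to 0.516) in knockout, 0.982% (0.745 to 1.27) in irradiated WT and 0.214% (0.142 to 0.309) in non-irradiated WT. Among kept cells with a Ptprc UMI, taken as leukocytes, it was 0.469% (0.323 to 0.658) in knockout, 1.23% (0.925 to 1.59) in irradiated WT and 0.592% (0.394 to 0.855) in non-irradiated WT. Irradiated WT thus held the highest share on each of these 3 bases, with an interval that met neither of the others. The order of the other libraries changed with the base. The knockout share lay above that of non-irradiated WT among all kept cells and below it among leukocytes, and their intervals overlapped on each base. Shares also depend on tissue dissociation, whose part was not tested.

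**Figure D1:**
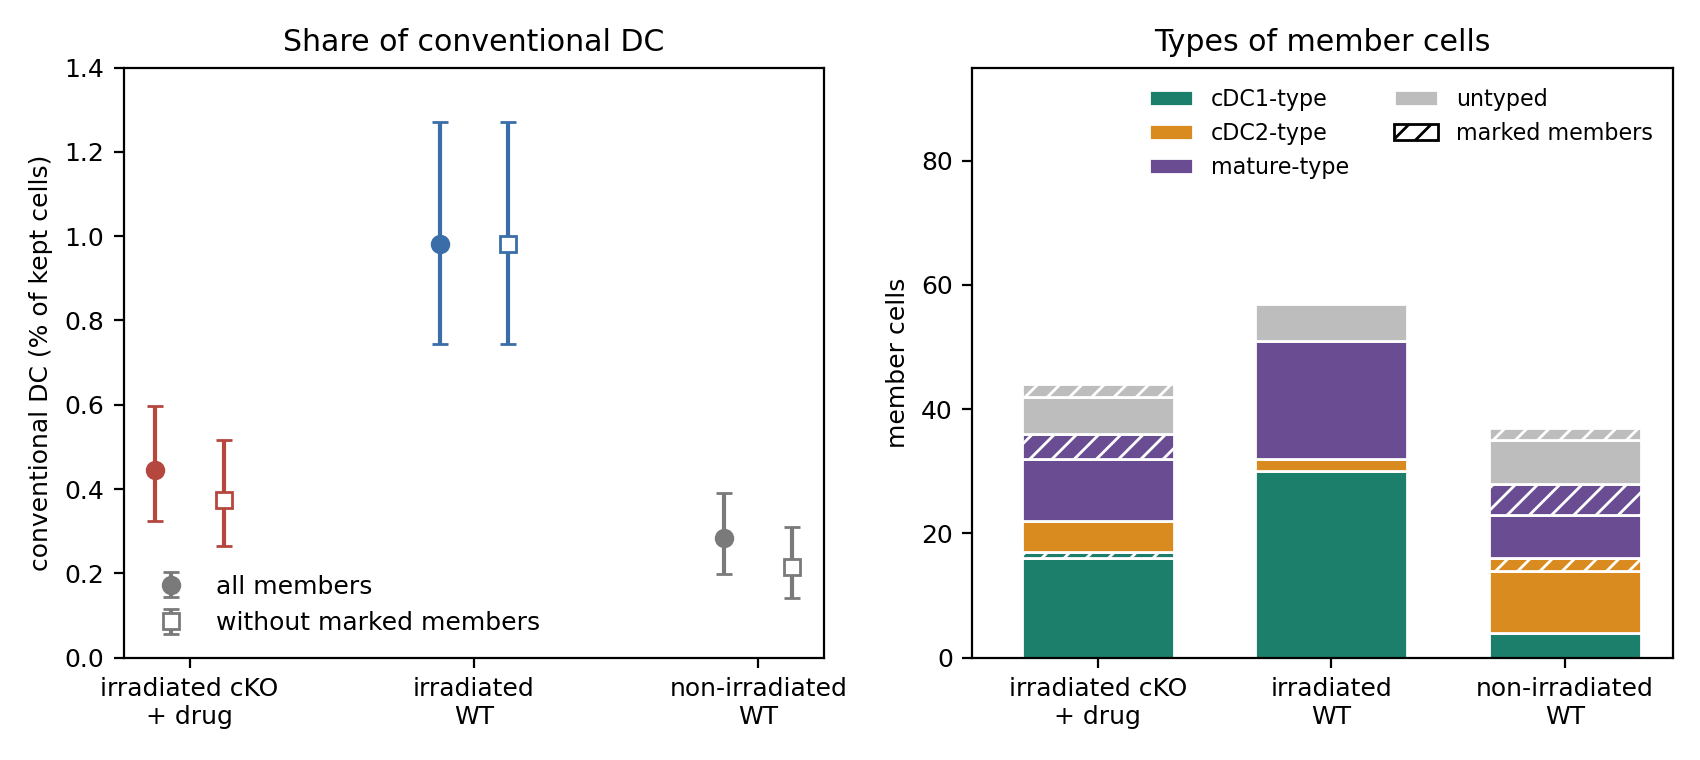
Left, conventional DC as a percentage of kept cells in each library, with exact binomial 95% intervals, for all DC (filled circles) and without the marked cells (open squares); irradiated WT stands at 0.982% in both, above the intervals of the other libraries. Right, number of DC of each type in each library, with marked cells hatched; cDC1-type cells number 17 in knockout, 30 in irradiated WT and 4 in non-irradiated WT, and cDC2-type cells 5 in knockout, 2 in irradiated WT and 12 in non-irradiated WT.

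The make-up of the DC differed between libraries. A DC was called cDC1-type, cDC2-type or mature-type by whichever of Xcr1 plus Clec9a, Cd209a or Fscn1 had the most UMIs, with at least 2 UMIs, and untyped on ties or lower counts. There were 17 cDC1-type cells in knockout, 30 in irradiated WT and 4 in non-irradiated WT, and 5 cDC2-type cells in knockout, 2 in irradiated WT and 12 in non-irradiated WT. There were 14 mature-type cells in knockout, 19 in irradiated WT and 12 in non-irradiated WT, and 8 untyped cells in knockout, 6 in irradiated WT and 9 in non-irradiated WT. The cDC1-type share of the DC was 38.6% (24.4 to 54.5) in knockout, 52.6% (39.0 to 66.0) in irradiated WT and 10.8% (3.03 to 25.4) in non-irradiated WT. The cDC2-type share ran the other way, at 11.4% (3.79 to 24.6) in knockout, 3.51% (0.428 to 12.1) in irradiated WT and 32.4% (18.01 to 49.8) in non-irradiated WT. The mature-type share was 31.8% (18.6 to 47.6) in knockout, 33.3% (21.4 to 47.1) in irradiated WT and 32.4% (18.01 to 49.8) in non-irradiated WT. The marked cells included 4 mature-type cells in knockout, 0 in irradiated WT and 5 in non-irradiated WT. With all marked cells left out, the mature-type share of the DC was 27.0% (13.8 to 44.1) in knockout, 33.3% (21.4 to 47.1) in irradiated WT and 25.0% (10.7 to 44.9) in non-irradiated WT, and the cDC1-type share was 43.2% (27.1 to 60.5) in knockout, 52.6% (39.0 to 66.0) in irradiated WT and 14.3% (4.03 to 32.7) in non-irradiated WT. The cDC1-type interval of non-irradiated WT, marked cells included, lay wholly below that of irradiated WT and overlapped that of knockout at its edge.

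As a share of all kept cells, cDC1-type cells stood at 0.172% (0.100 to 0.275) in knockout, 0.517% (0.349 to 0.737) in irradiated WT and 0.0306% (0.00833 to 0.0782) in non-irradiated WT, 3 intervals that did not meet. Mature-type cells stood at 0.142% in knockout, 0.327% in irradiated WT and 0.0917% in non-irradiated WT, and at 0.101% in knockout, 0.327% in irradiated WT and 0.0535% in non-irradiated WT without the marked cells. The cDC2-type cells stood at 0.0506% in knockout, 0.0345% in irradiated WT and 0.0917% in non-irradiated WT. The types are ranges of a count rather than separate classes: with at least 3 UMIs required, the cDC1-type share of the knockout DC was 20.5%. Depth also enters, since thinning every DC to 3000 UMIs left cDC1-type shares of 6.98% in knockout, 7.02% in irradiated WT and 0 in non-irradiated WT. No type reached 20 cells in both libraries of a pair, the number planned for comparing a type. Counts of genes and lists within types, given below, use a limit of 10 cells that was added later. Some single values by type rest on fewer cells. Since the types were cut from their own marker counts, their sizes are described and not read as a change in any subset.

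**Figure D2:**
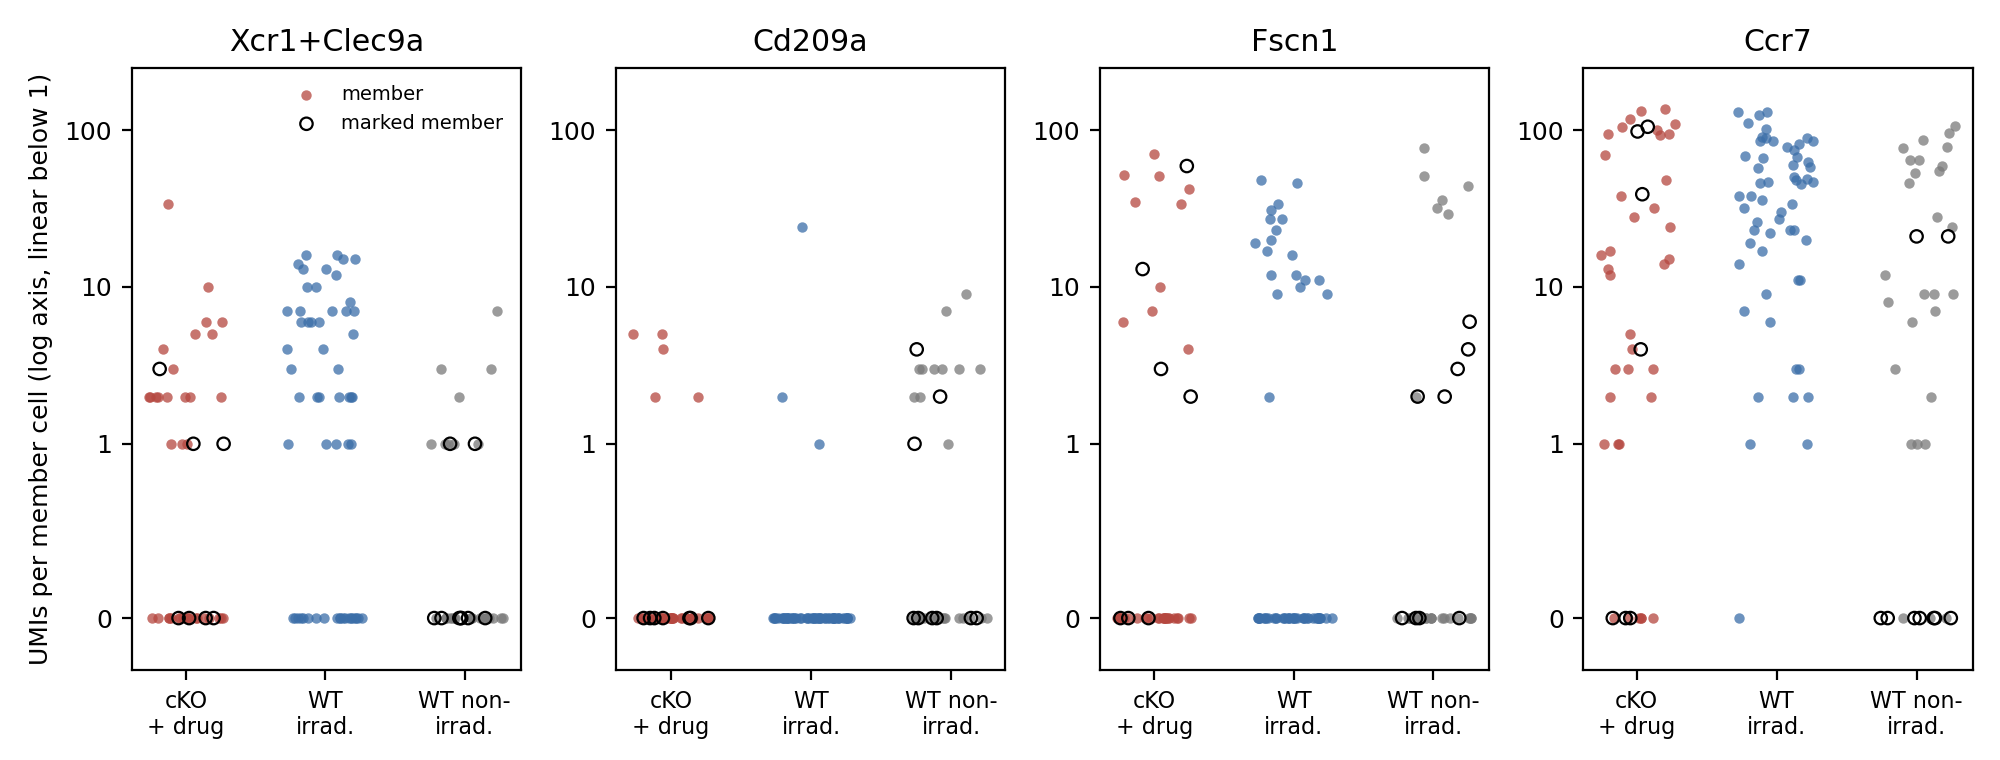
UMIs per DC of Xcr1 plus Clec9a, Cd209a, Fscn1 and Ccr7 in each library (log axis, linear below 1), 1 point per cell, marked cells as open circles. Cells with Xcr1 plus Clec9a are most frequent in irradiated WT, cells with Cd209a in non-irradiated WT, and Ccr7 is held by 35 of 44 DC in knockout, 56 of 57 in irradiated WT and 27 of 37 in non-irradiated WT.

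The rule markers other than Flt3 also set the types, so their levels are a description only. The levels given for the 5 markers include the marked cells. Flt3, the growth factor receptor that DC depend on, stood at 106 CPM in knockout, 174 in irradiated WT and 79.5 in non-irradiated WT over all DC, seen in 31 cells in knockout, 51 in irradiated WT and 21 in non-irradiated WT. Xcr1 stood at 80.5 CPM in knockout, 119 in irradiated WT and 20.6 in non-irradiated WT, seen in 13 cells in knockout, 29 in irradiated WT and 6 in non-irradiated WT. Clec9a stood at 45.4 CPM in knockout, 63.5 in irradiated WT and 9.60 in non-irradiated WT, seen in 18 cells in knockout, 34 in irradiated WT and 6 in non-irradiated WT. All 3 were highest in irradiated WT and lowest in non-irradiated WT. Cd209a stood at 23.4 CPM in knockout, 20.7 in irradiated WT and 63.1 in non-irradiated WT, seen in 5 cells in knockout, 3 in irradiated WT and 14 in non-irradiated WT, and 1 cell held 88.9% of its irradiated WT UMIs. Most unmarked cDC2-type cells of non-irradiated WT held no Flt3 UMI. Fscn1 stood at 504 CPM in knockout, 294 in irradiated WT and 395 in non-irradiated WT, seen in 14 cells in knockout, 19 in irradiated WT and 12 in non-irradiated WT. It was lowest in irradiated WT, although the mature-type share was not. The marked cells of non-irradiated WT held at most 6 Fscn1 UMIs each. B cells, which should lack both genes, held Xcr1 in 1 of 522 cells in knockout, 2 of 366 in irradiated WT and 2 of 810 in non-irradiated WT. They held Fscn1 in 9 cells in knockout, 1 in irradiated WT and 8 in non-irradiated WT, at median depths of 6011 UMIs per B cell in knockout, 5024 in irradiated WT and 4742.5 in non-irradiated WT.

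Ccr7 was not confined to the Fscn1 cells. Of unmarked cDC1-type cells, 14 of 16 in knockout, 29 of 30 in irradiated WT and 3 of 4 in non-irradiated WT held it. Among unmarked cells the median was 9.5 Ccr7 UMIs in knockout, 32 in irradiated WT and 12.5 in non-irradiated WT per cDC1-type cell and 97.5 UMIs in knockout, 60 in irradiated WT and 77 in non-irradiated WT per mature-type cell. Over all unmarked DC, Ccr7 stood at 2177 CPM (2062 to 2297) in knockout, 1995 (1919 to 2073) in irradiated WT and 1837 (1719 to 1961) in non-irradiated WT. H2-Ab1 ran the opposite way between the types, with medians of 212.5 UMIs in knockout, 347 in irradiated WT and 201 in non-irradiated WT per unmarked cDC1-type cell and 26 UMIs in knockout, 64 in irradiated WT and 32 in non-irradiated WT per unmarked mature-type cell. In each library the mature-type cells thus held more Ccr7 and less H2-Ab1 transcript than the cDC1-type cells.

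Genes of antigen presentation on MHC class II were close between libraries. H2-Ab1 was used to choose the cells, so its level is fixed in part by the rule. H2-Ab1, the class II beta chain, stood at 10793 CPM in knockout, 10475 in irradiated WT and 9922 in non-irradiated WT. Its partner, the alpha chain gene H2-Aa, stood at 9622 CPM in knockout, 10224 in irradiated WT and 10139 in non-irradiated WT. Cd74, the invariant chain, stood at 27243 CPM in knockout, 26518 in irradiated WT and 26509.7 in non-irradiated WT. These genes differed by less than 1.5-fold between any of the libraries. Of 14 measured class II presentation genes, 1 was at least 1.5-fold higher and 1 lower in knockout than in irradiated WT (median log2 ratio 0.04). With H2-Ab1 left out of the list the counts were 1 and 1 of 13 (median 0.04). Over all genes in that comparison 9.54% were at least 1.5-fold higher and 9.05% lower, and the median log2 ratio was close to 0. Between irradiated and non-irradiated WT 0 were past 1.5-fold in either direction (median 0.09), where 17.9% of all genes were higher and 8.65% lower. Lgmn, a lysosomal protease, was the higher gene, at 169.7 CPM in knockout, against 106 in irradiated WT. H2-DMb1, which helps load peptide on class II, was the lower, at 361 CPM in knockout, against 561 in irradiated WT, and at 592 CPM in knockout, against 752 in irradiated WT within cDC1-type cells.

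A group of MHC class I genes was higher in irradiated than in non-irradiated WT. Of 20 measured genes of class I presentation and cross-presentation, 8 were at least 1.5-fold higher and 1 lower in irradiated WT (median log2 ratio 0.54, against 0.12 over all genes, of which 17.9% were higher and 8.65% lower). B2m, the class I light chain, stood at 3161 CPM (3022 to 3305) in knockout, 2484 (2399 to 2571) in irradiated WT and 1603 (1493 to 1719) in non-irradiated WT. Tap1, the peptide transporter, stood at 165 CPM (134 to 200.3) in knockout, 227 (202 to 255) in irradiated WT and 89.4 (65.0 to 120.0) in non-irradiated WT. Psmb9, an immunoproteasome subunit, stood at 261 CPM (222 to 305) in knockout, 243 (217 to 272) in irradiated WT and 93.5 (68.4 to 125) in non-irradiated WT. All 3 were higher in both irradiated libraries than in non-irradiated WT, with intervals that did not meet. Cybb, an NADPH oxidase subunit listed for its role in cross-presentation, was the lower gene, at 89.8 CPM in knockout, 40.6 in irradiated WT and 226 in non-irradiated WT. Between knockout and irradiated WT the list had a median log2 ratio of 0.08. The make-up of the DC moved with the same libraries, cDC1-type cells being few in non-irradiated WT, and its part was not tested.

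Subset lists are given here without the rule markers, which also set the types. Of 12 measured cDC1 genes 7 were at least 1.5-fold higher and 0 lower in irradiated than in non-irradiated WT (median log2 ratio 0.66), against 17.9% and 8.65% of all genes. Of 15 cDC2 genes 1 was higher and 8 lower there (median -0.88). Knockout had 0 of 12 cDC1 genes higher and 5 lower than irradiated WT (median -0.51), and 6 of 12 cDC2 genes higher and 0 lower (median 0.58), against 9.54% and 9.05% of all genes. Itgae, the CD103 integrin chain of lung cDC1, stood at 147 CPM in knockout, 230.4 in irradiated WT and 65.0 in non-irradiated WT. Wdfy4, which cDC1 need for cross-presentation, stood at 104 CPM in knockout, 169.9 in irradiated WT and 114 in non-irradiated WT. Irf4, a transcription factor of cDC2, stood at 32.6 CPM (19.9 to 50.4) in knockout, 9.18 (4.75 to 16.0) in irradiated WT and 77.2 (54.6 to 106) in non-irradiated WT, seen in 10 cells in knockout, 6 in irradiated WT and 14 in non-irradiated WT. Tmem176b, a membrane protein gene of myeloid cells, stood at 268 CPM in knockout, 121 in irradiated WT and 276 in non-irradiated WT. Within the cDC1-type cells alone 0 of 12 cDC1 genes were higher and 1 lower in knockout (median -0.21), and the median of the cDC2 list was -0.18.

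Other DC identity genes had patterns of their own. Irf8, the cDC1 transcription factor, stood at 361 CPM (315 to 411) in knockout, 327 (297 to 359) in irradiated WT and 173 (138 to 214) in non-irradiated WT, and in mature-type cells at 760.1 CPM in knockout, 579 in irradiated WT and 247 in non-irradiated WT. Cst3, cystatin C, stood at 30368 CPM in knockout, 27185 in irradiated WT and 15781 in non-irradiated WT. Id2, an inhibitor of DNA binding needed by cDC1, stood at 1092 CPM in knockout, 1419 in irradiated WT and 914 in non-irradiated WT. These 3 were lowest in non-irradiated WT. Zbtb46, the factor that sets conventional DC apart from other myeloid cells, was within 1.5-fold at 32.6 CPM in knockout, 47.4 in irradiated WT and 40.6 in non-irradiated WT. Cd207, langerin, a lectin of lung cDC1, was named after its values were seen. Within cDC1-type cells it stood at 537 CPM in knockout, 112 in irradiated WT and 182 in non-irradiated WT, held by 8 cells in knockout, 12 in irradiated WT and 2 in non-irradiated WT, and at 377 CPM in knockout, 82.5 in irradiated WT and 99.9 in non-irradiated WT without the highest cell of each library.

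**Figure D3:**
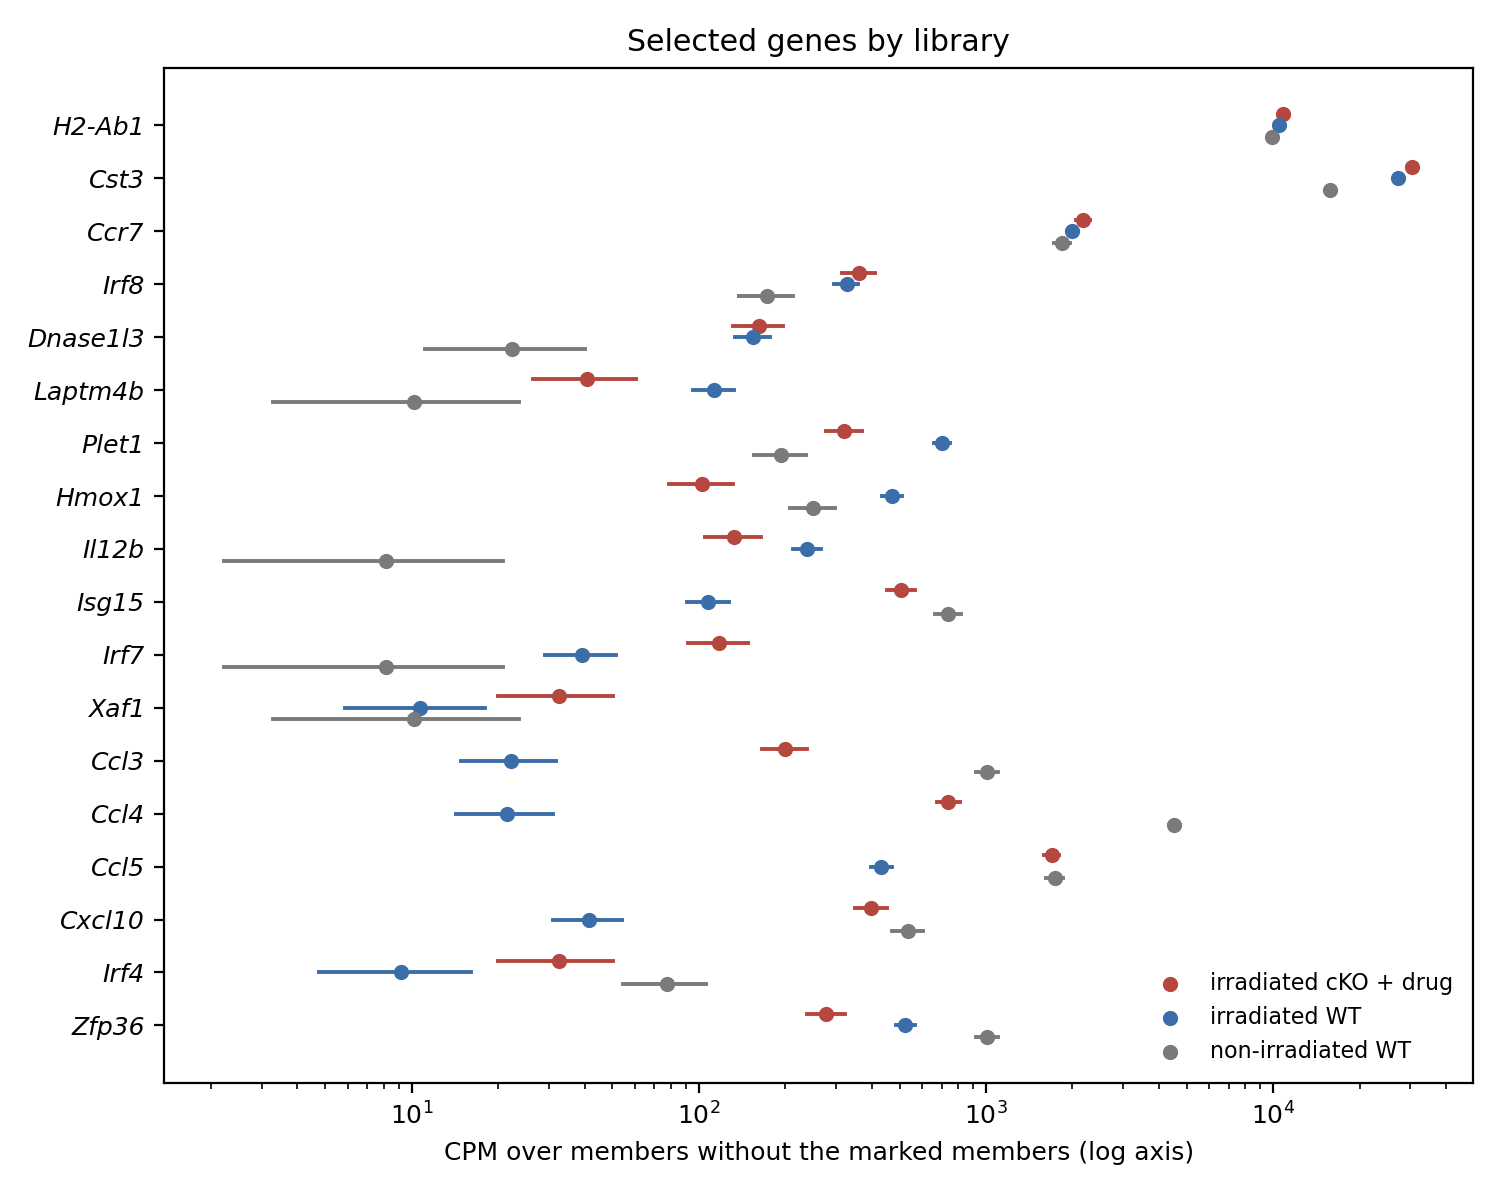
CPM over the DC without marked cells for 18 genes in each library (log axis), with exact Poisson 95% intervals that cover counting error only. Hmox1, Plet1, Laptm4b and Il12b lie highest in irradiated WT, and Isg15, Ccl3, Ccl4, Ccl5, Cxcl10 and Irf4 lie lowest there.

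Hmox1, heme oxygenase 1, which breaks down heme and is known as a stress-induced antioxidant enzyme, had the lowest ratio of knockout over irradiated WT over all DC among the genes named for being lower there. It stood at 103 CPM (79.0 to 132) in knockout, 469.9 (433 to 509) in irradiated WT and 249.9 (208 to 298) in non-irradiated WT. The log2 ratio of knockout over irradiated WT was -2.14, and -2.39 with the marked cells included. Hmox1 was seen in 20 of 37 DC in knockout, 34 of 57 in irradiated WT and 17 of 28 in non-irradiated WT. Without the cell holding most of its UMIs it stood at 84.4 CPM in knockout, 419 in irradiated WT and 183 in non-irradiated WT. In cDC1-type cells Hmox1 stood at 168 CPM in knockout, against 601 in irradiated WT, and without the highest cells at 128 CPM in knockout, against 521 in irradiated WT. In mature-type cells it stood at 17.4 CPM in knockout, against 161 in irradiated WT, where the knockout value rests on 3 UMIs and 1 cell held 66.7% of the irradiated WT UMIs. Without the highest cells these were 13.8 CPM in knockout, against 57.5 in irradiated WT. B cells held Hmox1 at 50.5 CPM in knockout, 55.8 in irradiated WT and 22.0 in non-irradiated WT, in 33 cells in knockout, 21 in irradiated WT and 49 in non-irradiated WT. Between the irradiated libraries the levels differed by under 1.5-fold in B cells, few of which held Hmox1, and by over 4-fold over all unmarked DC. The part of the type make-up in the DC value was not tested.

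Over all DC, 437 of 6239 genes considered (7.0%) were at least 2-fold higher and 81 (1.3%) at least 2-fold lower in knockout than in irradiated WT, on CPM with 5 CPM added. Without the marked cells 170 of 5754 genes (2.95%) were higher and 116 (2.02%) lower. The same measure gave 50 genes (0.559%) higher and 148 (1.66%) lower of 8939 in B cells, and 27 (0.16%) higher and 36 (0.214%) lower of 16843 in all remaining cells. Those cells are far more numerous, so their values carry less counting error, and the shares cannot be set against each other as sizes of effect. In unmarked cDC1-type cells, 16 in knockout and 30 in irradiated WT, 128 of 3986 genes (3.21%) were higher and 180 (4.52%) lower. In unmarked mature-type cells, 10 in knockout and 19 in irradiated WT, 68 of 2795 genes (2.43%) were higher and 262 (9.37%) lower.

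Several genes besides Hmox1 were lower in knockout and seen in many cells. Plet1, a GPI-anchored surface protein, stood at 321 CPM in knockout, 705 in irradiated WT and 193 in non-irradiated WT, and at 650.4 CPM in knockout, 1099 in irradiated WT and 255 in non-irradiated WT in cDC1-type cells. Laptm4b, a lysosomal membrane protein, stood at 40.8 CPM in knockout, 113 in irradiated WT and 10.2 in non-irradiated WT. Sept3, a septin, stood at 13.1 CPM in knockout, 52.0 in irradiated WT and 18.3 in non-irradiated WT. Plet1, Laptm4b and Sept3 were highest in irradiated WT. Kcnk6, a potassium channel, stood at 19.6 CPM in knockout, 55.1 in irradiated WT and 28.4 in non-irradiated WT. Trio, a guanine nucleotide exchange factor, stood at 42.4 CPM in knockout, 93.4 in irradiated WT and 42.7 in non-irradiated WT. Hmga1, a chromatin-binding protein, stood at 26.1 CPM in knockout, 57.4 in irradiated WT and 26.4 in non-irradiated WT. In equal numbers of DC thinned to 3000 UMIs, marked cells included, the log2 ratios of Sept3, Hmga1 and Trio turned to 0.69, 0.69 and 0.48. Utf1 and Adam23 had log2 ratios of -1.61 and -1.01 for knockout over irradiated WT, and Utf1 one of 0.060 in mature-type cells.

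The cDC1-type cells, the most frequent type in irradiated WT, had lower genes of their own, among 36 that met the naming rule there. Mkl1, a cofactor of serum response factor, stood at 7.84 CPM in knockout, against 64.2 in irradiated WT, in 2 knockout and 25 irradiated WT cells. Camk1d, a calcium-dependent kinase, stood at 11.8 CPM in knockout, against 73.0 in irradiated WT, in 3 knockout and 23 irradiated WT cells. Mfsd6, a transporter-family protein, stood at 11.8 CPM in knockout, against 49.1 in irradiated WT, in 3 knockout and 20 irradiated WT cells. The knockout levels rest on 2 UMIs of Mkl1, 3 of Camk1d and 3 of Mfsd6. In these knockout cells 3 UMIs are 11.8 CPM, so the cell counts add no separate observation. Median depth was 18134.5 UMIs per unmarked cDC1-type cell in knockout, against 27066.5 in irradiated WT. In the other direction 7 genes met the rule. Acadl, an enzyme of fatty acid oxidation, stood at 208 CPM in knockout, against 91.8 in irradiated WT. Plscr1, an interferon-inducible scramblase, stood at 125 CPM in knockout, against 56.6 in irradiated WT. Ccnd2, cyclin D2, stood at 141 CPM in knockout, against 67.9 in irradiated WT.

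Genes at least 2-fold higher in knockout over all DC were in part those of the marked cells. Of the 10 with the highest ratio, Ehd4, Rras, Cyth3, Lmo2 and App were under 2-fold without the marked cells, with log2 ratios of 0.73, 0.55, 0.21, 0.87 and 0.94. Clu, the secreted chaperone clusterin, kept a log2 ratio of 1.11. Secisbp2l, a relative of the selenocysteine-insertion protein SECISBP2, stood at 45.7 CPM in knockout, 6.12 in irradiated WT and 10.2 in non-irradiated WT. Rnd3, an atypical small GTPase, stood at 88.1 CPM in knockout, 22.96 in irradiated WT and 152 in non-irradiated WT. Rfk, riboflavin kinase, stood at 73.4 CPM in knockout, 22.2 in irradiated WT and 79.2 in non-irradiated WT. These 3 and the interferon-stimulated gene Xaf1, at 32.6 CPM in knockout, 10.7 in irradiated WT and 10.2 in non-irradiated WT, stayed at least 2-fold higher. Mfge8, which bridges dying cells to phagocytes, met the naming rule once the marked cells were left out, at 109 CPM in knockout, against 27.6 in irradiated WT. Cd14, the lipopolysaccharide co-receptor, stood at 197 CPM in knockout, against 83.4 in irradiated WT. Ifitm3, an interferon-induced membrane protein, stood at 738 CPM in knockout, against 319.9 in irradiated WT.

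Genes of mature migratory DC were spread around equality in the knockout comparison, with 6 of 29 at least 1.5-fold higher and 2 lower (median log2 ratio 0.16), against 9.54% and 9.05% of all genes. This list includes Fscn1, a rule marker that also set the mature type, so its part in the count is a description only. Apol7c, an apolipoprotein L gene of activated DC, stood at 318 CPM in knockout, 91.8 in irradiated WT and 221 in non-irradiated WT, and in mature-type cells at 1102 CPM in knockout, 322 in irradiated WT and 840.2 in non-irradiated WT. Nudt17, a Nudix hydrolase, stood at 122 CPM in knockout, 53.6 in irradiated WT and 61.0 in non-irradiated WT. Anxa3, an annexin, stood at 321 CPM in knockout, 127 in irradiated WT and 167 in non-irradiated WT. These 3 were lowest in irradiated WT. Ccl22, a CCR4 ligand that draws regulatory T cells, stood at 1248 CPM in knockout, 1052 in irradiated WT and 1662 in non-irradiated WT. Ccl17, which binds the same receptor, stood at 1010.1 CPM in knockout, 1187 in irradiated WT and 1995 in non-irradiated WT. Both were highest in non-irradiated WT. The co-stimulatory ligand Cd86 stood at 524 CPM in knockout, 409 in irradiated WT and 482 in non-irradiated WT. The checkpoint ligand Cd274 (PD-L1) stood at 426 CPM in knockout, 506 in irradiated WT and 536 in non-irradiated WT. Of 18 measured co-stimulation and checkpoint genes 2 were at least 1.5-fold higher and 1 lower in knockout than in irradiated WT (median log2 ratio 0.11), against 9.54% and 9.05% of all genes.

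Il12b, the p40 chain of interleukins 12 and 23 and a product of activated DC, was most frequent in irradiated WT. It stood at 132 CPM (105 to 164) in knockout, 239 (213 to 267) in irradiated WT and 8.13 (2.21 to 20.8) in non-irradiated WT. It was seen in 7 of 37 DC in knockout, 22 of 57 in irradiated WT and 2 of 28 in non-irradiated WT. The highest cell held 56.8% in knockout, 41.3% in irradiated WT and 75.0% in non-irradiated WT of its UMIs, and without that cell the level was 59.1 CPM in knockout, 143 in irradiated WT and 2.13 in non-irradiated WT. In mature-type cells Il12b stood at 197 CPM in knockout, 737 in irradiated WT and 23.1 in non-irradiated WT. The order of the libraries thus stayed without the highest cells and within the mature-type cells. In cDC1-type cells Il12b stood at 184 CPM in knockout, 44.0 in irradiated WT and 12.1 in non-irradiated WT. This turned the order of knockout and irradiated WT, with 97.9% of the knockout UMIs in 1 cell. Without the highest cells it stood there at 4.26 CPM in knockout, 20.7 in irradiated WT and 0 in non-irradiated WT. B cells held it in 1 of 522 cells in knockout, 1 of 366 in irradiated WT and 0 of 810 in non-irradiated WT. Zmynd15, also listed as a gene of mature DC, followed the same order, at 227 CPM in knockout, 312 in irradiated WT and 93.5 in non-irradiated WT.

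Genes stimulated by type I interferon were mostly higher in knockout than in irradiated WT DC. Over all DC, 12 of 19 measured genes of the list were at least 1.5-fold higher and 0 lower (median log2 ratio 0.72), where 15.8% of all genes were higher and 6.46% lower. When the marked cells were left out 11 of 18 were higher and 0 lower (median 0.71). In cDC1-type cells 8 of 11 were higher and 1 lower (median 0.78), where 11.9% of all genes were higher and 13.3% lower. Of the knockout UMIs in these cells, 1 cell held 78.9% for Isg15 and 60.3% for Irf7. In mature-type cells 2 of 6 were higher and 0 lower (median 0.35), where 9.3% of all genes were higher. B cells had 3 of 19 higher and 0 lower (median 0.35), where 2.75% of all genes were higher and 8.98% lower. The remaining kept cells had 3 of 29 higher and 0 lower (median 0.16), where 0.606% of all genes were higher and 0.932% lower. A difference in the same direction, with a smaller median, was thus present outside the DC, and whether that of the DC exceeds it was not tested.

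Promoters of 4 interferon-stimulated genes are shown because type I interferon acts through a repeated GAAA element in the promoters of its target genes. The 250 bases before the transcription start are from RefSeq on GRCm38.p6, printed 5′ to 3′ along the gene, with matches to GAAANNGAAA on either strand in capitals.
Isg15 (chr4:156200819-156201068, minus strand): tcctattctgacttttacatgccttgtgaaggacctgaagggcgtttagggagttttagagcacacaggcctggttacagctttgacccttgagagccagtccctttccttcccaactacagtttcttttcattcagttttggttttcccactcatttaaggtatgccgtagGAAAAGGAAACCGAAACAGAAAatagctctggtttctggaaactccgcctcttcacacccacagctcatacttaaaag
Ifit1 (chr19:34640639-34640888, plus strand): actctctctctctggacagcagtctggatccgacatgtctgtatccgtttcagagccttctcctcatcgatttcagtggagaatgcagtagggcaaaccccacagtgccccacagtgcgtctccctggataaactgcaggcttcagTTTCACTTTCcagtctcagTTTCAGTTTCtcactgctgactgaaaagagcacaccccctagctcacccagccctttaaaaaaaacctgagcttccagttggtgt
Cxcl10 (chr5:92348890-92349139, minus strand): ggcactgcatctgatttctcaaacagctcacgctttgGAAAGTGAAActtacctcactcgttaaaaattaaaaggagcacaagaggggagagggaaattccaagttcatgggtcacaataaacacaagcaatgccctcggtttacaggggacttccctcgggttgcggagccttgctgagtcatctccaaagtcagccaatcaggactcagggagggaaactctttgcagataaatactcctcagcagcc
Irf7 (chr7:141266425-141266674, minus strand): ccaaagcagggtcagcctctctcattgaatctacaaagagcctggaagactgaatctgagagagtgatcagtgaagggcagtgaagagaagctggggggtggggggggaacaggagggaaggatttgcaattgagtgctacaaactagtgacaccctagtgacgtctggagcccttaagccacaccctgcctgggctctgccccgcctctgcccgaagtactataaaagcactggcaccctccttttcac
Isg15 held 3 overlapping matches, starting 78, 72 and 66 bases before the start. Ifit1 held 2, at 104 and 85 bases, Cxcl10 held 1 at 213 bases, and Irf7 held none in this window. The motif was found in 978 of 32851 promoters (2.98%) and in 936 of 27025 genes (3.46%). Of the 30 listed interferon-stimulated genes 20 had a promoter in the table, and 11 of these (55.0%) held it. A match is a run of letters and not a measured binding site.

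Isg15, a ubiquitin-like protein induced by interferon, stood at 506 CPM (451 to 565) in knockout, 108 (90.8 to 127) in irradiated WT and 738 (664 to 817) in non-irradiated WT. It was seen in 14 of 37 DC in knockout, 21 of 57 in irradiated WT and 11 of 28 in non-irradiated WT. The highest cell held 44.5% in knockout, 16.3% in irradiated WT and 52.9% in non-irradiated WT of its UMIs, and without that cell the level was 292 CPM in knockout, 92.0 in irradiated WT and 364 in non-irradiated WT. Over all unmarked DC irradiated WT thus had the lowest level with and without the highest cells. Its share of DC holding the gene lay close to the others. In non-irradiated WT 10 cDC2-type cells held 295 of the 363 UMIs, and the part of the type make-up was not tested. In mature-type cells Isg15 stood at 656 CPM in knockout, 322 in irradiated WT and 509 in non-irradiated WT. Without the highest cells these were 463 CPM in knockout, 278 in irradiated WT and 121 in non-irradiated WT, then the lowest. In cDC1-type cells Isg15 stood at 0 CPM in non-irradiated WT, from 4 cells, and at 74.4 CPM in knockout, against 21.4 in irradiated WT. Without the highest cells it stood there at 17.0 CPM in knockout and 17.0 in irradiated WT, so that difference was gone. B cells held Isg15 at 9.32 CPM in knockout, 8.43 in irradiated WT and 10.5 in non-irradiated WT. Irf7, the factor that amplifies interferon production, stood at 117 CPM (91.9 to 148) in knockout, 39.0 (29.1 to 51.3) in irradiated WT and 8.13 (2.21 to 20.8) in non-irradiated WT, and at 57.4 CPM in knockout, 30.7 in irradiated WT and 6.36 in non-irradiated WT without the highest cells. In cDC1-type cells Irf7 stood at 247 CPM in knockout, against 42.8 in irradiated WT, and without the highest cells at 106 CPM in knockout, against 30.2 in irradiated WT. In mature-type cells the order turned, at 11.6 CPM in knockout, against 42.9 in irradiated WT, in 2 knockout and 4 irradiated WT cells. Ifit1, which binds viral RNA, was sparse, at 39.2 CPM in knockout, 3.06 in irradiated WT and 382 in non-irradiated WT, in 3 cells in knockout, 2 in irradiated WT and 9 in non-irradiated WT, and the highest cell held 73.9% of its non-irradiated WT UMIs.

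Smaller differences were seen in other genes of the list. Bst2 (tetherin), which holds budding virus at the membrane, stood at 372 CPM in knockout, 294 in irradiated WT and 109.7 in non-irradiated WT. Ifi27l2a stood at 147 CPM in knockout, 91.1 in irradiated WT and 56.9 in non-irradiated WT. Phf11b stood at 73.4 CPM in knockout, 44.4 in irradiated WT and 4.06 in non-irradiated WT. Zbp1, a nucleic acid sensor, stood at 29.4 CPM in knockout, 15.3 in irradiated WT and 6.10 in non-irradiated WT. These 4 were highest in knockout and lowest in non-irradiated WT. Between irradiated and non-irradiated WT the list had no common direction. With all DC 4 of 20 genes were higher and 11 lower in irradiated WT (median log2 ratio -0.94), where 10.1% of all genes were higher and 28.0% lower. When the marked cells were left out 6 of 19 were higher and 8 lower (median 0.25), so the median turned sign. Rsad2 (viperin) stood at 13.8 CPM in irradiated WT, against 52.8 in non-irradiated WT, lower in irradiated WT like Isg15 and Ifit1. Both comparisons use the irradiated WT library, so a level particular to it enters both.

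More chemokine genes were lower than higher in irradiated than in non-irradiated WT. Of 15 measured chemokines 4 were at least 1.5-fold higher and 10 lower in irradiated than in non-irradiated WT (median log2 ratio -1.54), against 17.9% and 8.65% of all genes. Knockout had 7 of 14 higher and 3 lower than irradiated WT (median 0.51), against 9.54% and 9.05% of all genes. Ccl4, a CC chemokine that attracts T cells and monocytes, stood at 739 CPM (673 to 811) in knockout, 21.4 (14.2 to 31.0) in irradiated WT and 4529 (4343 to 4721) in non-irradiated WT, in 11 cells in knockout, 13 in irradiated WT and 13 in non-irradiated WT. The highest cell held 73.7% in knockout, 35.7% in irradiated WT and 42.1% in non-irradiated WT of its UMIs, and without that cell the level was 202 CPM in knockout, 13.9 in irradiated WT and 2749 in non-irradiated WT. The order of the libraries thus stayed. Within cDC2-type cells Ccl4 stood at 954 CPM in knockout, 69.8 in irradiated WT and 12291 in non-irradiated WT, from 5 cells in knockout, 2 in irradiated WT and 10 in non-irradiated WT. Without the highest cells it stood at 47.5 CPM in knockout, 109.8 in irradiated WT and 7826 in non-irradiated WT, which turned the order of knockout and irradiated WT. These cells were most frequent in non-irradiated WT, and the part of the type make-up was not tested. Ccl3, a related CC chemokine, stood at 199 CPM in knockout, 22.2 in irradiated WT and 1009.8 in non-irradiated WT, and at 45.0 CPM in knockout, 17.9 in irradiated WT and 551 in non-irradiated WT without the highest cells.

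Ccl5 and Cxcl10, which draw effector T cells among others, had their lowest level over all unmarked DC in irradiated WT. Ccl5 stood at 1696 CPM (1594 to 1802) in knockout, 432 (397 to 469.6) in irradiated WT and 1737 (1623 to 1858) in non-irradiated WT, in 22 cells in knockout, 29 in irradiated WT and 16 in non-irradiated WT, and at 1279 CPM in knockout, 332 in irradiated WT and 1258 in non-irradiated WT without the highest cells. In mature-type cells Ccl5 stood at 4212 CPM in knockout, 1469 in irradiated WT and 2081 in non-irradiated WT. In cDC1-type cells Ccl5 stood at 74.4 CPM in knockout, 18.9 in irradiated WT and 72.8 in non-irradiated WT. B cells, which should lack it, held Ccl5 in 161 of 522 cells in knockout, 63 of 366 in irradiated WT and 144 of 810 in non-irradiated WT, at 398 CPM in knockout, 678 in irradiated WT and 242 in non-irradiated WT. In each library the mature-type cells stood above the B cells and the cDC1-type cells below them, so Ccl5 of the cDC1-type cells cannot be told apart from background. Cxcl10 stood at 398 CPM (349.8 to 451) in knockout, 41.3 (31.0 to 53.9) in irradiated WT and 534 (472 to 603) in non-irradiated WT, and at 191 CPM in knockout, 30.3 in irradiated WT and 393 in non-irradiated WT without the highest cells. In knockout 11 cells held it, of which 3 held 132, 72 and 20 of its 244 UMIs. In mature-type cells Cxcl10 stood at 0 CPM in knockout, 67.0 in irradiated WT and 100.2 in non-irradiated WT, so there it was higher in irradiated WT than in knockout. The highest cells were partly shared between genes. Among unmarked DC, 1 cDC2-type cell of non-irradiated WT held the most UMIs of Isg15, Ccl3, Ccl4 and Ccl5. In knockout 1 untyped cell held the most of Isg15, Ccl4 and Ccl5, besides 72 UMIs of Cxcl10. Differences in these genes are thus not separate observations.

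Cxcl2 and Cxcl3, which attract neutrophils, had another order. Cxcl2 stood at 879.6 CPM in knockout, 1557 in irradiated WT and 1024 in non-irradiated WT, and at 406 CPM in knockout, 845 in irradiated WT and 683 in non-irradiated WT without the highest cells. Cxcl3 stood at 47.3 CPM in knockout, 184 in irradiated WT and 10.2 in non-irradiated WT. Both were highest in irradiated WT over all unmarked DC. There 1 cDC1-type cell held 963 and 1 cDC2-type cell 386 of the 2035 Cxcl2 UMIs, and only the first was left out above. In cDC1-type cells Cxcl2 stood at 411 CPM in knockout, 1806 in irradiated WT and 1785 in non-irradiated WT. In mature-type cells it stood at 638 CPM in knockout, 552 in irradiated WT and 200.4 in non-irradiated WT. Of those knockout UMIs 1 cell held 87.3%. Cxcl1 stood at 315 CPM in knockout, 195 in irradiated WT and 34.5 in non-irradiated WT, with 95.3% of its knockout UMIs in 1 cell. Cxcl9, also a CXCR3 ligand, stood at 84.9 CPM in knockout, 140.1 in irradiated WT and 10.2 in non-irradiated WT, with 77.0% of its irradiated WT UMIs in 1 cell. These values thus rest on a lone cell each. Il1b, interleukin 1 beta, stood at 259 CPM (221 to 303) in knockout, 175 (153 to 199) in irradiated WT and 721 (648 to 800.4) in non-irradiated WT, in 12 cells in knockout, 23 in irradiated WT and 18 in non-irradiated WT, and at 181 CPM in knockout, 148 in irradiated WT and 584 in non-irradiated WT without the highest cells. It was highest in non-irradiated WT either way. Il10, an anti-inflammatory cytokine, stood at 8.16 CPM in knockout, 25.3 in irradiated WT and 2.03 in non-irradiated WT.

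**Figure D4:**
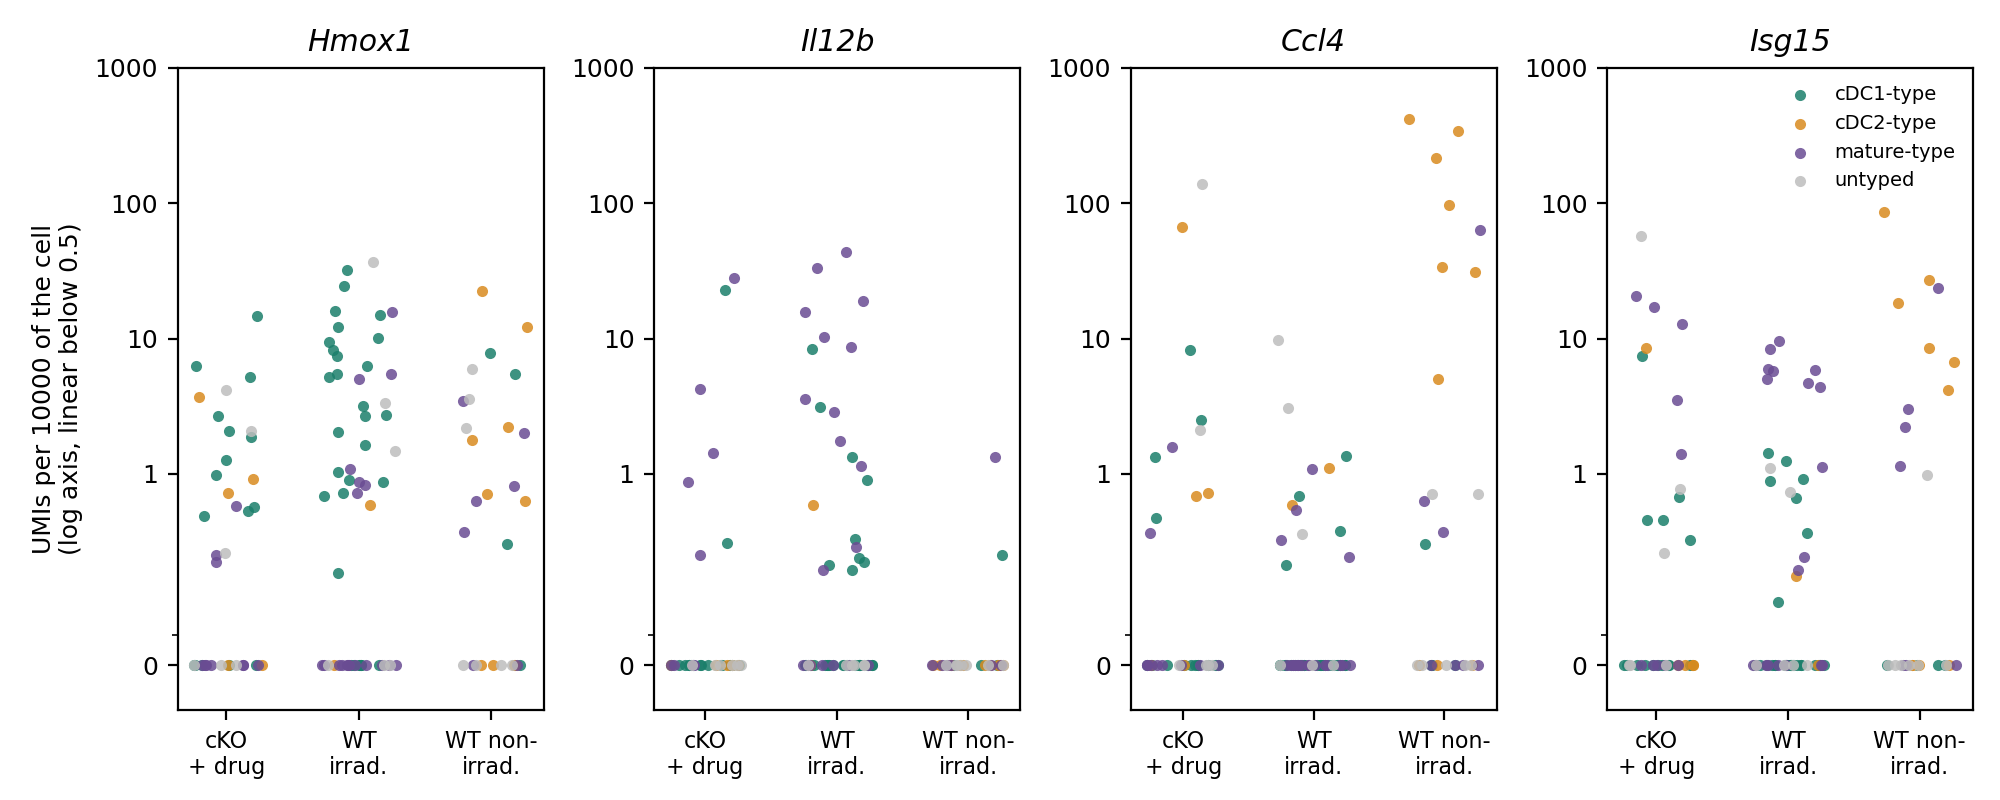
UMIs of Hmox1, Il12b, Ccl4 and Isg15 per 10000 UMIs of each DC, marked cells left out, by library (log axis, linear below 0.5), coloured by type. Hmox1 is held by 20 cells in knockout, 34 in irradiated WT and 17 in non-irradiated WT, Il12b by 7 in knockout, 22 in irradiated WT and 2 in non-irradiated WT, and the highest Ccl4 cells of non-irradiated WT are mostly cDC2-type.

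Between irradiated and non-irradiated WT, 220 of 6586 genes (3.34%) were at least 2-fold higher and 1088 (16.5%) at least 2-fold lower over all DC. Without the marked cells 317 of 5500 (5.76%) were higher and 172 (3.13%) lower, so the balance of the directions turned with the 9 marked cells of non-irradiated WT. The median log2 ratio of all genes was -0.18 with and 0.12 without them. Of the 10 genes with the lowest ratio over all DC, 9 were Cldn5, Adgrf5, Tmem100, Tspan7, Egfl7, Aqp1, Slco2a1, Ace and Thbd, genes of endothelial cells. They stood at 295 to 1204 CPM in non-irradiated WT with the marked cells and at 4.06 to 30.5 CPM there without them. The remaining gene, Ccl4, had a log2 ratio of -7.63 with and -7.42 without them. For knockout over non-irradiated WT, which differ in irradiation, genotype and drug at once, 189 of 6188 genes (3.05%) were higher and 676 (10.9%) lower over all DC. When the marked cells were left out 252 of 4356 (5.79%) were higher and 121 (2.78%) lower.

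The genes named as higher in irradiated than in non-irradiated WT stayed so without the marked cells. Ifi211, an interferon-inducible PYHIN family gene, stood at 42.4 CPM in knockout, 62.8 in irradiated WT and 6.10 in non-irradiated WT (log2 ratio of irradiated over non-irradiated WT 2.61). Epsti1, also interferon-inducible, stood at 362 CPM (316 to 413) in knockout, 383 (349.8 to 418) in irradiated WT and 73.1 (51.2 to 101) in non-irradiated WT, and in mature-type cells at 1137 CPM in knockout, 1265 in irradiated WT and 177 in non-irradiated WT. Dnase1l3, a secreted nuclease that digests DNA shed by dying cells, stood at 162 CPM (131 to 197) in knockout, 155 (134 to 177) in irradiated WT and 22.4 (11.2 to 40.0) in non-irradiated WT, seen in 14 cells in knockout, 30 in irradiated WT and 4 in non-irradiated WT. In these 3 genes knockout lay nearer to irradiated than to non-irradiated WT. Tcea3, a transcription elongation factor, stood at 40.8 CPM in knockout, 52.8 in irradiated WT and 8.13 in non-irradiated WT. Pdlim4, a LIM domain protein, stood at 27.7 CPM in knockout, 26.0 in irradiated WT and 0 in non-irradiated WT, and 3 UMIs in non-irradiated WT would be 6.10 CPM. Dnah2, a dynein heavy chain, stood at 29.4 CPM in knockout, 49.7 in irradiated WT and 6.10 in non-irradiated WT. Gclc, the rate-limiting enzyme of glutathione synthesis, stood at 109 CPM in irradiated WT, against 18.3 in non-irradiated WT.

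Lower in irradiated than in non-irradiated WT were, besides the chemokines, Irf4 and Cybb, also Socs3 and immediate early genes. Socs3, a feedback inhibitor of cytokine signalling, stood at 97.9 CPM in knockout, 68.1 in irradiated WT and 352 in non-irradiated WT. Of 24 immediate early and heat shock genes 1 was at least 1.5-fold higher and 12 lower in irradiated WT (median log2 ratio -0.52), against 17.9% and 8.65% of all genes. Atf3, a stress-induced transcription factor, stood at 524 CPM in knockout, 360.5 in irradiated WT and 1014 in non-irradiated WT. Jun, an AP-1 subunit, stood at 153 CPM in knockout, 124 in irradiated WT and 437 in non-irradiated WT. Ier2 stood at 145 CPM in knockout, 150.0 in irradiated WT and 333 in non-irradiated WT. Between the irradiated libraries 2 of 24 were higher and 2 lower in knockout (median close to 0), against 9.54% and 9.05% of all genes. Zfp36, which destabilises cytokine mRNA, stood at 277 CPM in knockout, 524 in irradiated WT and 1006 in non-irradiated WT, lowest in knockout.

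**Figure D5:**
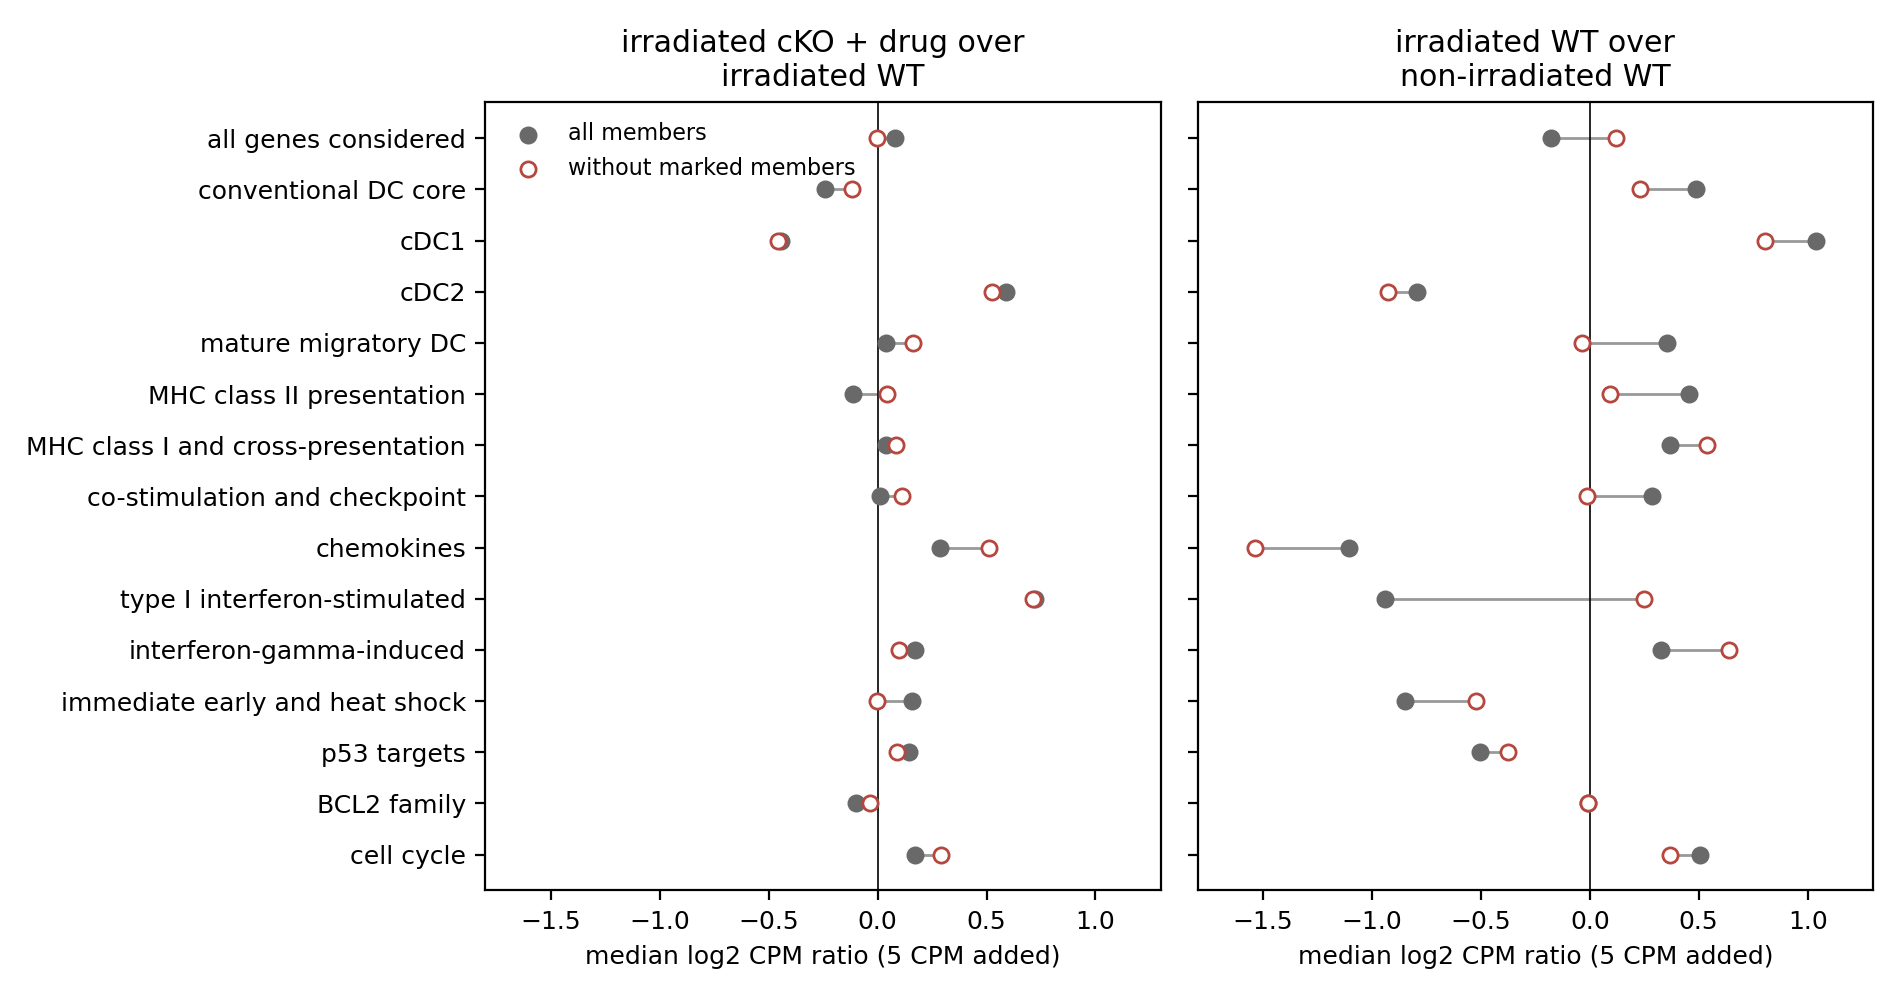
Median log2 CPM ratio (5 CPM added) of the measured genes of 14 lists and of all genes considered, for knockout over irradiated WT (left) and irradiated over non-irradiated WT (right), with all DC (filled) and without the marked cells (open). The interferon-stimulated list stands at 0.72 with and 0.71 without the marked cells on the left, and at -0.94 with and 0.25 without them on the right.

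Genes of the p53 response, which radiation is known to engage, had no common direction in the DC. Of 11 measured targets 1 was at least 1.5-fold higher and 3 lower in irradiated than in non-irradiated WT (median log2 ratio -0.38), against 17.9% and 8.65% of all genes. Knockout had 2 of 11 higher and 1 lower than irradiated WT (median 0.09), against 9.54% and 9.05% of all genes. Cdkn1a, the p21 cell cycle inhibitor, stood at 455 CPM (403 to 512) in knockout, 546 (507 to 588) in irradiated WT and 398 (344 to 458) in non-irradiated WT. Mdm2, the p53 ubiquitin ligase, stood at 114 CPM in knockout, 107 in irradiated WT and 122 in non-irradiated WT. Bax, a pro-apoptotic target, stood at 186 CPM in knockout, 166 in irradiated WT and 175 in non-irradiated WT. These 3 differed by less than 1.5-fold between the libraries. Of the BCL2 family, which sets the threshold of cell death, 0 of 12 genes were past 1.5-fold in either direction in the knockout comparison, and 0 higher and 1 lower of 11 in the irradiation comparison. Among NF-kB subunits and feedback genes 0 of 21 were higher and 2 lower in knockout, and 4 of 21 higher and 3 lower in irradiated WT than in non-irradiated WT, to be read against the same shares of all genes. Tnfaip3 (A20), a brake on NF-kB, stood at 318 CPM in knockout, 453 in irradiated WT and 656 in non-irradiated WT.

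Of 22 measured transcription factors of DC 4 were at least 1.5-fold higher and 1 lower in knockout than in irradiated WT (median log2 ratio 0.07), against 9.54% and 9.05% of all genes. Of 24 measured between irradiated and non-irradiated WT 7 were higher and 5 lower in irradiated WT (median 0.02), against 17.9% and 8.65% of all genes. Besides Irf4, the factors Zeb2, needed for cDC2 development, and Klf2, a Krüppel-like factor, were lowest in irradiated WT. Zeb2 stood at 93.02 CPM in knockout, 55.1 in irradiated WT and 175 in non-irradiated WT, seen in 13 cells in knockout, 20 in irradiated WT and 16 in non-irradiated WT. Klf2 stood at 89.8 CPM in knockout, 49.7 in irradiated WT and 252 in non-irradiated WT, seen in 17 cells in knockout, 23 in irradiated WT and 20 in non-irradiated WT. Nfil3, by contrast, was highest in knockout, at 181 CPM in knockout, 88.8 in irradiated WT and 87.4 in non-irradiated WT. Irf1, an interferon-induced factor, stood at 256 CPM in knockout, 219.6 in irradiated WT and 134 in non-irradiated WT. Relb, the NF-kB subunit of mature DC, stood at 212 CPM in knockout, 217 in irradiated WT and 140.2 in non-irradiated WT. Both were lowest in non-irradiated WT. Spi1 (PU.1), needed by all myeloid lineages, was within 1.5-fold at 259 CPM in knockout, 272 in irradiated WT and 244 in non-irradiated WT.

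Receptors for growth factors and cytokines were mostly close between libraries. Of 21 measured 4 were at least 1.5-fold higher and 2 lower in knockout than in irradiated WT, against 9.54% and 9.05% of all genes, and 3 of 21 were higher and 3 lower in irradiated than in non-irradiated WT, against 17.9% and 8.65% of all genes. Csf2rb, the shared beta chain of the GM-CSF receptor, stood at 547 CPM in knockout, 739 in irradiated WT and 479.5 in non-irradiated WT. Il1r2, a decoy receptor that binds interleukin 1 without signalling, stood at 687 CPM (623 to 756) in knockout, 316 (286 to 348) in irradiated WT and 518 (456 to 586) in non-irradiated WT, seen in 26 cells in knockout, 42 in irradiated WT and 26 in non-irradiated WT. It was thus lowest in irradiated WT. Kit, the stem cell factor receptor, stood at 35.9 CPM in knockout, 68.1 in irradiated WT and 56.9 in non-irradiated WT, lowest in knockout. Ccr2, a chemokine receptor by which DC and monocytes enter tissue, stood at 65.3 CPM in knockout, 26.0 in irradiated WT and 26.4 in non-irradiated WT, highest in knockout.

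In mature-type cells more genes were lower than higher in knockout, from 10 knockout and 19 irradiated WT cells. Mki67, a proliferation marker, stood at 46.4 CPM in knockout, against 225 in irradiated WT, in 4 knockout and 11 irradiated WT cells. Ptgs2, cyclooxygenase 2, stood at 40.6 CPM in knockout, against 228 in irradiated WT, in 3 knockout and 8 irradiated WT cells. Gpr183, the oxysterol receptor that positions DC in lymphoid tissue, stood at 157 CPM in knockout, against 571 in irradiated WT. Tnip1, a partner of A20, stood at 52.2 CPM in knockout, against 209 in irradiated WT. Sat1, an enzyme of polyamine breakdown, was higher, at 354 CPM in knockout, against 158 in irradiated WT. Of 8 measured cytokine genes 6 were at least 1.5-fold lower and 0 higher in these cells, where 21.6% of all genes were lower. These values rest on few cells.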

How the data were processed

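Per the submitters' processing notes the genome build was mm10, and the deposited matrices carry software_version 3.1.0 in their headers, with the software itself unnamed there. The deposited values are raw UMI counts per gene and barcode, 31054 genes in each of 3 libraries, as the authors' pipeline wrote them, and 0 columns of per-sample values were left unused. From these counts the cells were selected by the stated rule. Their UMIs were summed per library and scaled to CPM, with 5 CPM added before a log2 ratio. A gene was considered with at least 20 UMIs over both libraries of a comparison and called apart at 2-fold, while lists were counted at 1.5-fold.

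Genes were named by a rule: the 10 highest and the 10 lowest ratios per comparison among genes past 2-fold with at least 30 UMIs and 5 cells in the higher library and at most 33% of its UMIs in 1 cell. The CPM in the DC of that library also had to reach that in its remaining kept cells. Mitochondrial, ribosomal protein, haemoglobin, immunoglobulin, T cell receptor segment, clone-model (Gm or Rik) and Y-linked genes, Xist and Tsix were left out of this naming. Genes of the lists were named besides, for their role. Of the genes the rule names, 1 is not reported here. The members and lists (559 of 563 listed genes are in the files) were chosen with earlier results of these data known. With 1 library per group there was no test. Doublets, called with Scrublet through scanpy 1.11.5 at an expected rate of 0.8% per 1000 barcodes, were kept and left out as an alternative, which removed 3 DC in knockout, 1 in irradiated WT and 6 in non-irradiated WT. The calling step was tested on simulated data with Poisson counting error alone, so spread between cells or mice was not covered. Python 3.11.15, numpy 2.4.6, scipy 1.17.1 and pandas 2.3.3 were used.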

Additional observations from a re-analysis of the deposited data

How the results depend on the processing

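Scrublet doublets included only 1 of 7 marked cells in knockout and 3 of 9 in non-irradiated WT. Leaving out these doublets turned no list median and moved no count of genes by over 1.5-fold. With median-of-ratios scaling no count moved that far either, but the medians of mature migratory DC and MHC class I genes for knockout over irradiated WT, both near 0, stood at -0.032 and -0.033. With female-type cells alone the DC share of irradiated WT was 1.298%, and the cell cycle median of knockout over irradiated WT was -0.086. The DC share of non-irradiated WT was 0.390% with H2-Ab1 of at least 5 UMIs, 0.153% without cells holding 3 or more UMIs of another lineage and 0.592% among Ptprc cells. The cDC1-type share of knockout DC was 20.5% with at least 3 UMIs required. With DC thinned to 3000 UMIs the cDC1-type share was 6.98% in knockout, 7.02% in irradiated WT and 0 in non-irradiated WT. The cDC2-type share was then 0 in knockout and 0 in non-irradiated WT, and the mature-type share 16.2% in non-irradiated WT.

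Counts of genes apart followed the thresholds. For knockout over irradiated WT, higher and lower genes numbered 224 and 17 with 20 CPM added, 173 and 36 from 50 UMIs, and 1083 and 136 with no minimum. Weighting cells equally gave 152 lower, and thinned cells 73 higher. Leaving out the marked cells gave 170 higher. There were 121 higher and 168 lower in all cDC1-type cells, 128 higher and 180 lower in unmarked ones and 68 higher and 262 lower in mature-type cells. For irradiated over non-irradiated WT they numbered 83 and 662 with 20 CPM added, 146 and 512 from 50 UMIs and 113 and 124 with thinned cells. There were 1961 lower with no minimum and 172 lower without the marked cells. For knockout over non-irradiated WT they numbered 81 and 344 with 20 CPM added, 83 and 334 from 50 UMIs, 471 and 1110 with no minimum and 72 and 105 with thinned cells, and 121 were lower without the marked cells.

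Of the list medians, cDC2 reversed for knockout over irradiated WT, to -0.055 in all cDC1-type cells, -0.18 in unmarked ones and -0.056 in mature-type cells. Other medians also changed sign in mature-type cells, where cDC1 stood at 0.19, MHC class II at 0.33, interferon gamma at -0.22, immediate early at -0.51, p53 targets at -0.89 and cell cycle at -0.93. The interferon-stimulated median of irradiated over non-irradiated WT reversed to 0.25 without the marked cells. Single genes reversed with thinned cells, where Rras stood at -0.69, Sept3 at 0.69, Hmga1 at 0.69 and Trio at 0.48. App stood at -0.26 in all and -0.28 in unmarked cDC1-type cells. In mature-type cells Rras stood at -0.52, Xaf1 at -0.046, Cyth3 at -0.81 and Utf1 at 0.060. The cause was not tested. The alternatives by marked cells, type, Ptprc and highest cell were chosen after seeing the data. Values in cDC2-type cells alone were not run as an alternative, since the irradiated WT library held 2 such cells. No paired analysis was possible because each group has 1 library. Cell number limits these data: the DC number 44 in knockout, 57 in irradiated WT and 37 in non-irradiated WT.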

Other observations

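Sensors and uptake receptors of DC, again with the marked cells left out, had no common direction. Of 13 measured, 3 were at least 1.5-fold higher and 1 lower in knockout than in irradiated WT, and 3 of 14 were higher and 4 lower in irradiated than in non-irradiated WT. Over all genes these shares were 9.54% higher and 9.05% lower in the knockout comparison and 17.9% higher and 8.65% lower in the irradiation comparison. Ly75 (DEC-205), an endocytic receptor, stood at 111 CPM in knockout, 120.2 in irradiated WT and 87.4 in non-irradiated WT. Cd36, a scavenger receptor used to take up dying cells, stood at 66.9 CPM in knockout, 100.3 in irradiated WT and 26.4 in non-irradiated WT, seen in 14 cells in knockout, 33 in irradiated WT and 6 in non-irradiated WT, and was highest in irradiated WT. Clec4n (Dectin-2), a fungal receptor, stood at 27.7 CPM in knockout, 9.95 in irradiated WT and 38.6 in non-irradiated WT, lowest in irradiated WT. Of 13 measured genes induced by interferon gamma 7 were higher and 1 lower in irradiated than in non-irradiated WT (median log2 ratio 0.64), against 17.9% and 8.65% of all genes. In knockout 2 of 13 were higher and 1 lower than in irradiated WT (median 0.10), against 9.54% and 9.05% of all genes.

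Of 11 measured genes of cholesterol efflux and lipid handling 2 were higher and 2 lower in knockout than in irradiated WT, against 9.54% and 9.05% of all genes. Fabp5, a fatty acid binding protein, stood at 1098 CPM in knockout, 532 in irradiated WT and 768 in non-irradiated WT, seen in 12 cells in knockout, 24 in irradiated WT and 15 in non-irradiated WT, with 56.8% of its knockout UMIs in 1 cell. Lgals3, galectin 3, stood at 1465 CPM in knockout, 2026 in irradiated WT and 1693 in non-irradiated WT, close between the libraries. Of 9 measured chemokine and migration receptors 2 were higher and 2 lower in knockout than in irradiated WT, against the same shares of all genes. Cxcr4, the receptor of CXCL12, stood at 96.3 CPM in knockout, 133 in irradiated WT and 221 in non-irradiated WT, and Ptger4, a prostaglandin E2 receptor, at 179.5 CPM in knockout, 219 in irradiated WT and 323 in non-irradiated WT. Both were highest in non-irradiated WT. Of 15 measured cell cycle genes 5 were higher and 3 lower in knockout than in irradiated WT, against 9.54% and 9.05% of all genes. Between irradiated and non-irradiated WT 2 of 11 were higher and 1 lower in irradiated WT, against 17.9% and 8.65% of all genes.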
